A study of Mus musculus with 12 samples.

Results

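Newborn bladders carrying the SMAA/EYFP transgene were compared with wild-type bladders on 6 of the 12 one-colour Affymetrix mouse arrays of the series. The members were 3 SMAA/EYFP arrays and the 3 wild-type arrays whose record numbers in the submitters' database follow theirs, 2195 to 2197 and 2198 to 2200. The arrays are named here SMAA/EYFP 1, 2 and 3 and wild type 4, 5 and 6, and the wild-type arrays of the earlier run of record numbers were not used as controls. In SMAA/EYFP mice the promoter of Acta2, the smooth muscle alpha actin gene, drives a yellow fluorescent protein, so the reporter is made in smooth muscle and in other cells that use this promoter. All 6 animals were FVB/N mice at postnatal day 1, each labelled male, and each array holds RNA of an unpooled whole bladder amplified in 1 round. The transgenic litters were sired by transgenic males and the wild-type litters by control males, so sire, litter and transgene cannot be told apart. The labels do not state that the 3 animals of a group came from separate litters, and p-values then measure only the spread between these samples. The question asked by the series was how the transgene affects expression in the bladder.

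The bladder wall consists of a urothelium, a lamina propria of fibroblasts and vessels, layers of smooth muscle called the detrusor, and an outer mesothelium. Alpha actin is part of the contractile apparatus of smooth muscle. Its promoter is activated by serum response factor, which binds CArG boxes and works with the coactivator myocardin, while the urothelium sends Hedgehog signals to the mesenchyme around it. At birth the bladder still grows, and cells in cycle express the genes that license and copy DNA before the genes of mitosis.

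1 wild-type library went against its label. In wild type 4, Xist, the RNA that coats the inactive X chromosome of female cells, measured an intensity of 29603.7, while the other 5 arrays measured between 80.1 and 238.0. The Y-linked gene Eif2s3y measured 26.7 in wild type 4 and between 3283.9 and 5095.9 on the others. Kdm5d measured 28.0 in wild type 4 and 937.8 to 1204.2 elsewhere. Uty measured 48.6 in wild type 4 and 724.5 to 1199.5 elsewhere. Wild type 4 was therefore high in the X inactivation gene and near background in the Y-linked genes, although it is labelled male. For some of the lists below, but not all, the counts are also given without it. Median intensity per array lay between 231.82 and 255.81. Correlations across probe sets were 0.9726 to 0.9851 between the groups, against 0.9754 to 0.9834 within SMAA/EYFP and 0.9747 to 0.9830 within wild type; such correlations run across genes, which do not count as replicates. The groups were mixed on the first principal component, which held 32.45% of the variance. On the second, which held 27.79%, the SMAA/EYFP arrays were at 9.59, 7.87 and 30.23, all above the wild-type arrays at -16.33, -31.42 and 0.06.

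**Figure D1:**
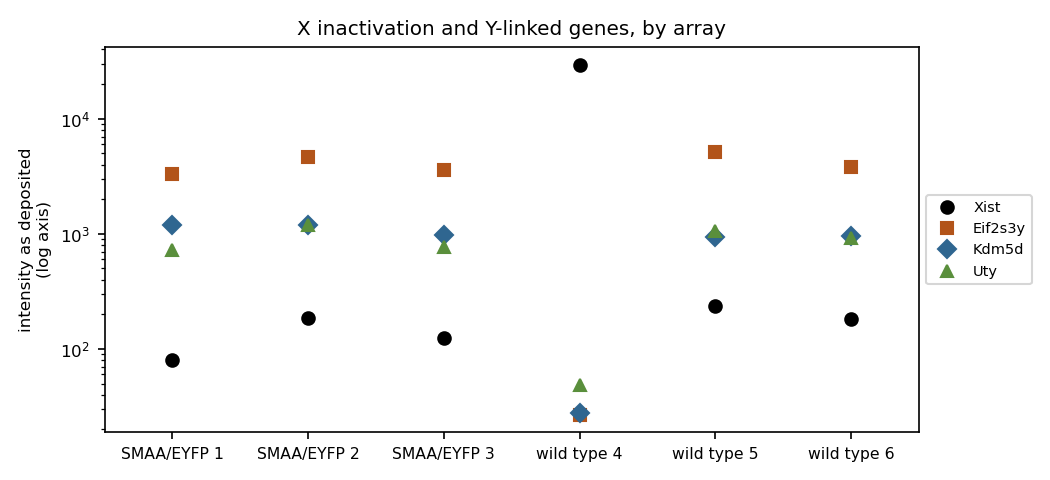
Intensity as deposited (log axis) of Xist and of the Y-linked genes Eif2s3y, Kdm5d and Uty on the 6 arrays, 1 point per array and gene. Wild type 4 has Xist at 29603.7 and the Y-linked genes between 26.7 and 48.6, the reverse of the other 5 arrays.

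Acta2, the gene whose promoter drives the reporter, showed no detectable difference. Levels are given as log2(intensity + 16) after quantile normalization, always in the order SMAA/EYFP 1, 2, 3 and wild type 4, 5, 6. The brightest Acta2 probe set measured 15.90, 15.84 and 16.04 in SMAA/EYFP and 15.97, 15.90 and 16.02 in wild type. The groups overlapped, at 15.93 ± 0.10 (SD) and 15.96 ± 0.06. The difference of -0.04 gave p = 0.800 in an exact permutation test (two-sided, n = 3 and 3), which cannot go below 0.10 at this size. This probe set ranked 6 of all probe sets by mean level, near the top of the intensity range where the array responds weakly to further RNA, and equality of the groups cannot be read from it. The other Acta2 probe sets, 2 and dimmer, differed by 0.00 and 0.12 (exact permutation p = 0.900 and 0.600). Actg2, the smooth muscle gamma actin gene, ranked 28 and differed by -0.01 (exact permutation p = 0.600). Whether any probe set reports the reporter's own RNA is not stated in the sources used here.

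The 250 bases before the RefSeq start of Acta2 are shown because this gene's promoter drives the reporter. The window lies at chr19:34255374-34255623 on the minus strand of GRCm38.p6, and the length of promoter used in the transgene is not given in the sources used here. Capitals mark matches to a CArG box, that is CC, then 6 bases of A or T of which 1 may be G or C, then GG.
Acta2: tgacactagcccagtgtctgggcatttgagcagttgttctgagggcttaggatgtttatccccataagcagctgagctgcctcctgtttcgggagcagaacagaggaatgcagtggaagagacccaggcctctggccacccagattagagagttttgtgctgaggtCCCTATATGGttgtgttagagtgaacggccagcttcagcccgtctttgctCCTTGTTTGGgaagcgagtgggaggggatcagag
The matches start 84 and 34 bases before the start. In windows of the same length, 9.78% of all 27025 genes of the promoter table held such a match, as did 10 of 32 genes (31.2%) of the smooth muscle contractile list. A match is a description of letters and not a binding site.

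No probe set passed the threshold in SMAA/EYFP against wild type. Of 22518 tested, 0 (0%) had an adjusted p under 0.05 (limma with Benjamini-Hochberg adjustment), and the smallest adjusted p was 0.264, for Ldhb. An unadjusted p under 0.05 was reached by 1633 probe sets, 794 higher and 839 lower, where 1125.9 are expected by chance. Without wild type 4, 1 probe set passed, of Ldhb (1.30, adjusted p = 0.0221), and without wild type 6, 1 of Amotl2 passed (adjusted p = 0.0317). The typical difference was small. Over the 11760 genes tested, with 1 probe set each, the median absolute log2 difference was 0.12, the 95th percentile was 0.48, and 44 genes differed by more than 1. All differences below between SMAA/EYFP and wild type are given as values that did not pass. They are read against the share of all genes whose 3 SMAA/EYFP arrays lay entirely above the 3 wild-type arrays, 5.70%, or entirely below them, 7.20%. In the mean, 47.5% of all genes were higher in SMAA/EYFP, and the median log2 difference over all genes was -0.01. The gene lists below were chosen with earlier results of these data known, so these shares describe the lists and do not test them.

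Among the leading genes higher in SMAA/EYFP were a metabolic enzyme, regulators of the G1 phase and factors of DNA replication. Ldhb, the B subunit of lactate dehydrogenase, measured 13.40, 13.38 and 13.42 in SMAA/EYFP and 12.57, 12.16 and 12.06 in wild type on its probe set of smallest p. The 3 transgenic arrays were almost level and all above the wild-type arrays, with a difference of 1.14 ± 0.13 (SE, 2.20-fold, limma adjusted p = 0.264). The other 3 Ldhb probe sets differed by 0.73, 0.90 and 0.94, each without overlap.

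Ccnd2, cyclin D2, which drives cells through G1 with its kinase partners, was measured by 7 probe sets that differed by 0.51 to 1.31. On the probe set of smallest p the arrays were at 9.59, 9.70 and 9.70 in SMAA/EYFP and 8.26, 7.93 and 8.85 in wild type. That difference of 1.31 ± 0.24 (adjusted p = 0.678) came from a dim probe set, and the brightest probe set differed by 0.51 ± 0.16. Cdkn1b, the cyclin-dependent kinase inhibitor p27, measured 10.37, 11.27 and 10.97 in SMAA/EYFP and 9.68, 9.95 and 9.56 in wild type. Its arrays did not overlap, at 1.14 ± 0.23 (adjusted p = 0.678), although the spread in SMAA/EYFP was wide. A second, dimmer Cdkn1b probe set was at -0.06 and did not show this.

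The other genes of smallest p that were higher include Klhl42, a substrate adaptor of a ubiquitin ligase, at 0.82 ± 0.14, and Mfsd2a, a transporter of lysophosphatidylcholine, at 0.92 ± 0.16. Pank3, a pantothenate kinase of coenzyme A synthesis, was at 0.66 ± 0.12 on 1 probe set and 0.22 ± 0.10 on its brighter one. Mpzl2, an adhesion protein of epithelia, was at 0.47 ± 0.09 on its brightest probe set. Its dimmer ones were at 0.36 and 0.48 with overlap. Ccdc91, a Golgi protein, was at 0.65 ± 0.13 on its brightest, while its dimmer ones were at 0.25 and 0.08 with overlap. Tatdn1, a member of the TatD nuclease family, was at 0.74 ± 0.12 on 1 probe set while its other 3 ranged from -0.31 to 0.12. Larger differences came from dim probe sets. Myrip, which links Rab27 vesicles to myosin, measured 8.51, 8.62 and 9.35 in SMAA/EYFP and 7.77, 7.19 and 7.55 in wild type, a difference of 1.33 ± 0.28. Kcnj15, an inwardly rectifying potassium channel, was at 1.20 ± 0.31 on 1 probe set and 0.45 ± 0.15 on its brightest. Recql, a RecQ DNA helicase, had 3 probe sets at 0.62, 1.14 and 1.16, and Rab3b, a GTPase of secretory vesicles, was at 1.16 ± 0.25. Pde4b, a cyclic AMP phosphodiesterase, was at 1.15 ± 0.27 on 1 probe set but 0.29 and 0.15 on its brighter ones.

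Genes lower in SMAA/EYFP included a growth factor receptor of mural cells, a regulator of G protein signalling and a calcium pump inhibitor of muscle. Pdgfrb, the platelet-derived growth factor receptor of pericytes and smooth muscle precursors, measured 11.57, 11.61 and 11.35 in SMAA/EYFP and 11.99, 12.15 and 12.12 in wild type. The arrays did not overlap, at -0.58 ± 0.12 (adjusted p = 0.678), and a dimmer probe set was at -0.36 with overlap. In RNA of a whole organ, fewer cells of a type and less RNA per cell cannot be told apart. Rgs2, which limits signalling from Gq-coupled receptors and is induced by many stimuli, measured 12.54, 13.32 and 12.82 in SMAA/EYFP and 14.22, 14.39 and 13.38 in wild type on its probe set of smallest p. The difference was -1.10 ± 0.27, and the gene's 4 probe sets ranged from -0.83 to -1.25. SMAA/EYFP 2 and wild type 6 lay close together, so the separation was narrow on this probe set. The Rgs2 probe sets at -0.97 and -1.25 overlapped between the groups. Pln, phospholamban, the inhibitor of the sarcoplasmic calcium pump, had 3 probe sets at -0.76, -0.87 and -0.87. On the probe set of smallest p its arrays were at 8.45, 8.40 and 8.20 in SMAA/EYFP and 9.06, 9.60 and 9.02 in wild type.

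Hebp1, a heme-binding protein, measured 12.42, 12.02 and 12.18 in SMAA/EYFP and 12.80, 12.83 and 12.79 in wild type. The wild-type arrays were nearly level and the difference was -0.60 ± 0.12 (adjusted p = 0.678). A smaller but tight difference was found for Plpp3, a lipid phosphate phosphatase, at -0.34 ± 0.07. Hspa1b, an inducible heat shock protein, was at -0.34 ± 0.07 on 1 probe set. Its brightest probe set was at -0.17 and the remaining one at -0.22, both with overlap. Hspa1b is nearly identical in sequence to its neighbour Hspa1a, which was at -0.35 ± 0.17, and the probe sets may not separate the pair. Prex1, an exchange factor of the GTPase Rac, was at -0.79 ± 0.16, and Gimap4, a GTPase of lymphocytes, at -0.51 ± 0.11. Traf5, an adaptor of tumour necrosis factor receptors, was at -0.69 ± 0.15, and Lhfpl2, a membrane protein with 4 passes, at -0.67 ± 0.14. Klhl4 and Nhsl2, both X-linked, were at -0.84 ± 0.17 and -0.73 ± 0.15, and without wild type 4 they were at -0.89 and -0.73. The dimmer Nhsl2 probe sets were at -0.44 and 0.27, both with overlap. For Pitpnb, a phosphatidylinositol transfer protein, the difference of -0.64 came from 1 of 4 probe sets, and the brightest was at 0.13 with SMAA/EYFP entirely above wild type. For Ccni (cyclin I) the difference of -0.90 likewise from 1 of 4. Prss29, a serine protease, was at -1.02 ± 0.27, the predicted gene Gm14204 at -0.98 ± 0.25 and Zfp30, a zinc finger protein, at -0.84 ± 0.25.

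**Figure D2:**
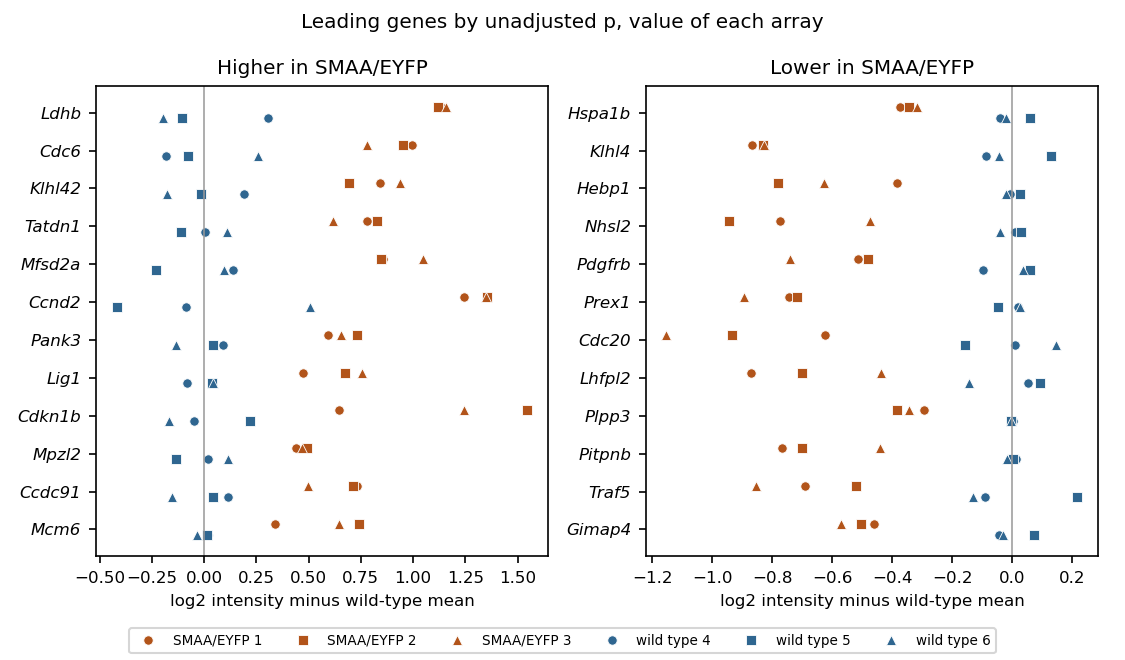
Value of each array minus the wild-type mean (log2 scale) for the 12 genes of smallest unadjusted p in each direction, on the probe set of smallest p. Orange points are the 3 SMAA/EYFP arrays and blue points the 3 wild-type arrays; the groups do not overlap in any gene shown, which is how they were chosen, and none passed the threshold.

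Genes that license and replicate DNA had higher means in SMAA/EYFP. Of 29 tested, 28 were higher in the mean, 18 had SMAA/EYFP arrays entirely above wild type (background 5.70%), 0 passed the threshold, and the median log2 difference was 0.35. The licensing factor Cdc6, which loads the MCM helicase onto origins, measured 11.55, 11.51 and 11.33 in SMAA/EYFP and 10.37, 10.48 and 10.81 in wild type. It differed by 0.91 ± 0.15 (1.88-fold, adjusted p = 0.662). Lig1, the ligase that joins Okazaki fragments, measured 11.82, 12.02 and 12.10 in SMAA/EYFP and 11.26, 11.38 and 11.39 in wild type, a difference of 0.63 ± 0.12. In both genes the lowest transgenic array lay clearly above the highest wild-type array.

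The 6 subunits of the MCM helicase, which unwinds DNA at the fork, ran the same way. Mcm6 measured 12.87, 13.27 and 13.18 in SMAA/EYFP and 12.55, 12.55 and 12.50 in wild type, and Mcm5 12.76, 13.18 and 13.07 against 12.36, 12.46 and 12.55. The differences were 0.57 ± 0.12 for Mcm6, 0.54 ± 0.13 for Mcm5, 0.50 ± 0.15 for Mcm2, 0.48 ± 0.11 for Mcm3, 0.29 ± 0.09 for Mcm4 and 0.25 ± 0.08 for Mcm7. On these probe sets, the brightest of each gene, none of the 6 overlapped between the groups, and SMAA/EYFP 1 was the lowest transgenic array in each. A dimmer Mcm6 probe set was at 0.32 with overlap. Mcm10, which activates the helicase, was at 0.83 ± 0.17, and Gins1 and Gins2, subunits of the helicase complex, were at 0.54 ± 0.16 and 0.52 ± 0.13.

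Among other factors of the fork, Pcna, Fen1, Prim1 and Uhrf1 were higher by 0.26 to 0.57 without overlap. Rfc3, Pola1 and Rfc4 were at 0.35, 0.29 and 0.05, all with overlap. Pcna, the sliding clamp, measured 14.93, 15.00 and 15.07 in SMAA/EYFP and 14.68, 14.66 and 14.89 in wild type, a difference of 0.26 ± 0.08. Fen1, the flap endonuclease, was at 0.57 ± 0.15, Prim1, a primase subunit, at 0.31 ± 0.12 and Uhrf1, which maintains DNA methylation behind the fork, at 0.46 ± 0.13. The arrays of some members overlapped. Among these, the cyclins Ccne1 and Ccne2 were at -0.06 ± 0.16 and 0.16 ± 0.19, and E2f1, Tk1 and Rrm2 at 0.21 ± 0.25, 0.10 ± 0.13 and 0.18 ± 0.11; these 5 were chosen after their values were seen. Without wild type 4, 25 of 29 were higher, 19 without overlap (background 13.6%), and the median was 0.30.

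Promoters of replication genes often hold sites for E2F factors, which link the G1 cyclins to S phase. The 250 bases before the RefSeq start (GRCm38.p6) are shown for Cdc6, Mcm6 and Mcm5, the list's 3 genes of smallest p that held a match. Capitals mark TTTGGCGC, TTTCCCGC, TTTGCCGC or TTTCGCGC on either strand, with overlapping matches all marked. The windows are chr11:98907901-98908150 on the plus strand, chr1:128359706-128359955 on the minus strand and chr8:75109259-75109508 on the plus strand.
Cdc6: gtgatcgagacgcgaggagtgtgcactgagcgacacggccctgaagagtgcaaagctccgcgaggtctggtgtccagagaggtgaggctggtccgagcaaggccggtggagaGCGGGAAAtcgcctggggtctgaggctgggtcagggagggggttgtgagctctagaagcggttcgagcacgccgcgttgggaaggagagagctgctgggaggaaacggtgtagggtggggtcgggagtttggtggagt
Mcm6: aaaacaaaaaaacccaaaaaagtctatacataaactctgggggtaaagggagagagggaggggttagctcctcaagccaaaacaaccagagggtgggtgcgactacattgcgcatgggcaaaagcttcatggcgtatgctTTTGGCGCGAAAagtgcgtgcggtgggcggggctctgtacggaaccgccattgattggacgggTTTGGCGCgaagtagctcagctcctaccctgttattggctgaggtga
Mcm5: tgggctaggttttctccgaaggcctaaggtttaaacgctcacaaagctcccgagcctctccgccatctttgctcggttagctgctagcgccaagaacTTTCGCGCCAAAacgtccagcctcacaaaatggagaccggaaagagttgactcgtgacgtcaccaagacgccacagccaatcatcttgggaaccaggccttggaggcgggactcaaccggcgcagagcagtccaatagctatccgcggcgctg
Cdc6 held 1 match, Mcm6 held 3 and Mcm5 held 2, of which those 110 and 106 bases before the start of Mcm6 and 153 and 149 before that of Mcm5 overlap. Over the list, 8 of 25 genes with a window (32.0%) held a match, against 3.95% of all genes tested with a window and 1 of 27 (3.70%) of the mitosis list. Matches did not mark the genes that separated. Of the 8, Cdc6, Mcm6, Mcm5, Uhrf1 and Mcm7 did not overlap between the groups, whereas Rfc3, Pola1 and Orc1 did, at 0.35, 0.29 and 0.35. Lig1 and Mcm10 held no match in this window.

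Genes of mitosis had slightly lower means. Of 31 tested, 24 were lower and 7 higher in SMAA/EYFP, 10 lay entirely below wild type (background 7.20%), 0 passed, and the median was -0.13. Cdc20, the activator of the anaphase-promoting complex, measured 13.17, 13.20 and 13.16 in SMAA/EYFP and 13.36, 13.38 and 13.41 in wild type on its brightest probe set. The arrays of each group were nearly level, at -0.21 ± 0.08, while a dim probe set of the same gene was at -0.90 and the remaining one at -0.06 with overlap. Cenpa, the centromeric histone, was at -0.36 ± 0.11, Kif20a, a kinesin of cytokinesis, at -0.34 ± 0.13, Tpx2, a spindle assembly factor, at -0.32 ± 0.12 and Ccnb2, a mitotic cyclin, at -0.31 ± 0.11. A list score averages, for 1 array, how far each member lies from its own mean over the 6 arrays on the log2 scale, and the mitosis score overlapped between the groups. It was 0.05, -0.19 and -0.05 in SMAA/EYFP and -0.06, 0.02 and 0.23 in wild type. For replication the scores were 0.06, 0.22 and 0.26 against -0.26, -0.18 and -0.11, without overlap. The mitosis median was -0.03 without wild type 6, and without wild type 4 it was -0.19, with 12 members entirely lower (background 13.4%).

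**Figure D3:**
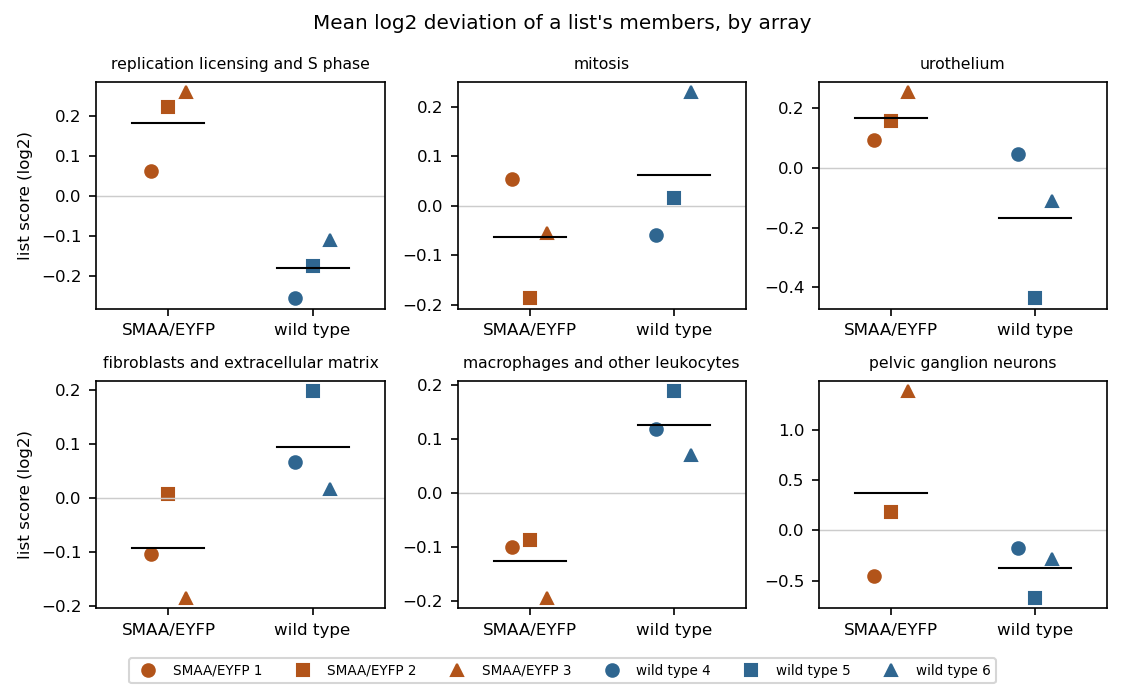
List score (mean log2 deviation of a list's members) on each array for 6 lists; orange points are SMAA/EYFP, blue points wild type, and black lines the group means. The replication, urothelium, fibroblast and leukocyte scores do not overlap between the groups. The urothelium score is lowest in wild type 5 at -0.44, and the neuron score is highest in SMAA/EYFP 3 at 1.39.

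Urothelial genes were higher in SMAA/EYFP, with wild type 5 lowest. Of 37 tested, 36 were higher in the mean, 12 lay entirely above wild type (background 5.70%), 0 passed, and the median was 0.34. Krt7, a keratin of all urothelial layers, measured 15.10, 15.04 and 15.17 in SMAA/EYFP and 14.82, 14.45 and 14.86 in wild type, a difference of 0.39 ± 0.11. Foxa1, a transcription factor of the urothelium, measured 14.72, 14.92 and 14.82 in SMAA/EYFP and 14.68, 14.15 and 14.46 in wild type, at 0.39 ± 0.12. In both genes wild type 5 was the lowest array, 0.37 below the next wild-type array in Krt7 and 0.32 below it in Foxa1. Genes of the basal layer and of the umbrella cells ran alike. The basal keratins Krt5 and Krt15 were at 0.38 ± 0.13 and 0.33 ± 0.12, and the surface antigen Ly6d at 0.38 ± 0.11. The uroplakins of umbrella cells, Upk3a, Upk2 and Upk1a, were at 0.27 ± 0.10, 0.46 ± 0.18 and 0.36 ± 0.15, and Krt20 at 0.51 ± 0.20, all with overlap. Krtdap, a protein of keratinizing epithelium, was the exception at -0.28 ± 0.15 and was picked out for that value. The list score was 0.09, 0.15 and 0.25 in SMAA/EYFP and 0.05, -0.44 and -0.11 in wild type. The median was 0.19 without wild type 5 and 0.46 without wild type 4, and without the latter 27 members lay entirely above wild type (background 13.6%). The urothelial ligand Shh, whose Hedgehog signal acts on the mesenchyme, measured 14.77, 14.74 and 14.91 in SMAA/EYFP and 14.70, 14.25 and 14.50 in wild type, at 0.32 ± 0.11.

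Of 15 genes of the Hedgehog list, which includes Shh, 13 were lower. The median was -0.19, and -0.09 without wild type 5. Gli2, the transcription factor that carries the signal, was at -0.31 ± 0.11 and Hhip, a target that binds the ligand, at -0.31 ± 0.12, both without overlap. Foxf2, a mesenchymal target, was at -0.47 ± 0.20 with overlap. In the mean, the ligand was thus higher and these mesenchymal genes lower than wild type. The summed urothelial markers were higher without overlap, and the summed fibroblast markers were lower in the mean with overlap. The part of tissue makeup in this was not tested. The summed intensity of the urothelium list was 639337 to 706321 in SMAA/EYFP and 472450 to 603669 in wild type.

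Fibroblast and matrix genes were lower by small amounts. Of 35 tested, 34 were lower in the mean, 9 lay entirely below wild type (background 7.20%), 0 passed, and the median was -0.20. Col1a1, the main chain of type I collagen, measured 14.68, 14.67 and 14.55 in SMAA/EYFP and 14.90, 14.91 and 14.83 in wild type. The arrays did not overlap, at -0.25 ± 0.07, and Col5a1, a chain of type V collagen, was at -0.24 ± 0.07. Pdgfra, a receptor of fibroblasts, was at -0.27 ± 0.09, Emilin1, an elastic fibre protein, at -0.40 ± 0.13 and Mfap5, a microfibril protein, at -0.27 ± 0.09. The summed intensity of the list was 761668 to 854853 in SMAA/EYFP and 835832 to 896053 in wild type. Without wild type 4 the median was -0.24 and 11 members lay entirely below (background 13.4%).

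Of 23 endothelial genes, 22 were lower in the mean, 3 entirely below wild type (background 7.20%), and 0 passed. Their median was -0.26. Cdh5, the cadherin of endothelial junctions, measured 11.12, 10.88 and 10.60 in SMAA/EYFP and 11.11, 11.47 and 11.21 in wild type. SMAA/EYFP 1 lay within the wild-type range, and the difference was -0.40 ± 0.16. Without wild type 4, 7 lay entirely below (background 13.4%). Of 20 leukocyte genes, 19 were lower in the mean, 6 entirely below wild type and 1 entirely above (background 7.20% and 5.70%), 0 passed, and the median was -0.24. Ptprc, the leukocyte antigen CD45, measured 9.21, 9.45 and 8.93 in SMAA/EYFP and 9.70, 9.82 and 9.45 in wild type, at -0.46 ± 0.18. SMAA/EYFP 2 and wild type 6 were at about the same level. Fcer1g, a chain of Fc receptors, was at -0.36 ± 0.13, Coro1a, an actin regulator of leukocytes, at -0.42 ± 0.15 on the brighter of 2 probe sets (0.12 on the other) and Cd74, the class II invariant chain, at -0.47 ± 0.19. The leukocyte score was -0.10, -0.09 and -0.19 in SMAA/EYFP and 0.12, 0.19 and 0.07 in wild type. Against all 6 wild-type arrays of the series, the median was -0.09. The summed intensity of the list was 27089 to 30074 in SMAA/EYFP and 30375 to 34096 in wild type.

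Smooth muscle genes, the compartment that carries the reporter, were lower by little. Of 35 contractile genes tested, 30 were lower in the mean, 4 lay entirely below wild type (background 7.20%), 0 passed, and the median was -0.07. Mrvi1, which takes part in relaxation through cyclic GMP, measured 12.57, 12.60 and 12.51 in SMAA/EYFP and 12.90, 13.12 and 12.72 in wild type, at -0.35 ± 0.12. Cap2, an actin-binding protein of muscle, was at -0.45 ± 0.15, and Ldb3, a Z-disc protein, at -0.41 ± 0.15 with overlap. Ppp1r14a, an inhibitor of myosin phosphatase, was at -0.30 ± 0.12. The list score was 0.01, -0.10 and -0.09 in SMAA/EYFP and -0.02, 0.13 and 0.07 in wild type, so the groups overlapped. Without wild type 4, 13 lay entirely below (background 13.4%) and the median was -0.12.

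Of 17 cofactors of serum response factor, 14 were lower, 4 entirely so (background 7.20%), and the median was -0.21, or -0.10 without wild type 5. Myocd, the myocardin that activates smooth muscle genes, measured 11.37, 11.13 and 11.50 in SMAA/EYFP and 11.64, 11.78 and 11.90 in wild type. All transgenic arrays lay below all wild-type arrays, at -0.44 ± 0.14 (adjusted p = 0.678). Tshz3, a zinc finger protein needed for smooth muscle of the ureter, was at -0.44 ± 0.16, Mef2a, a MADS-box factor, at -0.22 ± 0.10 on the brightest of 5 probe sets that ranged from -0.37 to 0.27, and Meis1, a homeodomain factor, at -0.21 ± 0.09. Over the receptors and ion channels of smooth muscle, 16 of 19 were lower, with a median of -0.28. Of the 19, 4 lay entirely below and 1 entirely above wild type (background 7.20% and 5.70%). Agtr1a, an angiotensin receptor, measured 9.63, 9.90 and 9.48 in SMAA/EYFP and 10.33, 10.13 and 10.03 in wild type, at -0.49 ± 0.16. Kcnma1, the large-conductance potassium channel that relaxes the detrusor, was at -0.38 ± 0.14. Cacna1c, the pore of the L-type calcium channel, had 2 probe sets that separated in opposite directions, the brighter at 0.39 ± 0.16 and the dimmer at -0.47 ± 0.17. Its auxiliary subunit Cacna2d1 was at -0.22 ± 0.10. Without wild type 4, 9 of the 19 lay entirely below (background 13.4%).

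**Figure D4:**
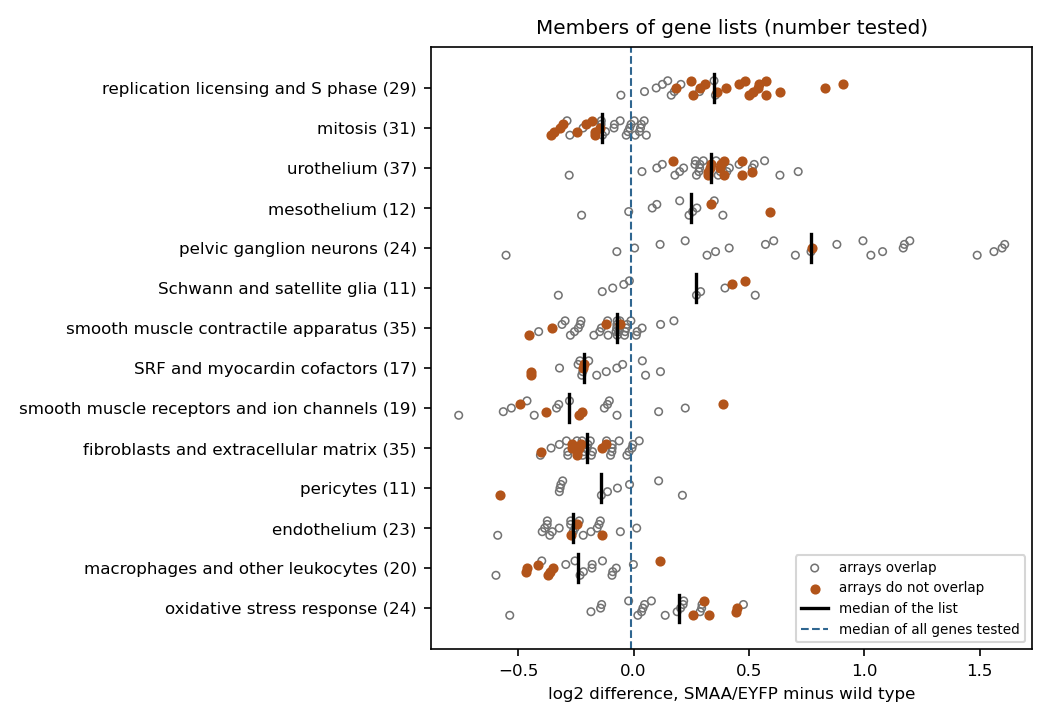
log2 difference of every tested member of 14 gene lists, 1 point per gene; filled points are genes whose SMAA/EYFP and wild-type arrays do not overlap, black bars the list medians and the dashed line the median of all genes tested (-0.01). The replication and urothelium lists lie to the right (medians 0.35 and 0.34) and the neuron list is the widest, with a median of 0.77.

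Neuronal genes had a wide spread between arrays, with SMAA/EYFP 3 highest. Of 24 genes of pelvic ganglion neurons tested, 22 were higher, 1 lay entirely above wild type (background 5.70%), 0 passed, and the median was 0.77. Vip, a neuropeptide of bladder nerves, measured 9.03, 10.02 and 11.45 in SMAA/EYFP and 9.05, 7.57 and 9.20 in wild type, a difference of 1.56 ± 0.59. SMAA/EYFP 3 was the highest array and SMAA/EYFP 1 lay within wild type. Nefl, the light neurofilament, picked after its values were seen, measured 9.75, 11.55 and 13.32 in SMAA/EYFP and 10.44, 8.80 and 10.55 in wild type. Nos1, neuronal nitric oxide synthase, was the member without overlap, at 0.77 ± 0.22. The score was -0.45, 0.19 and 1.39 in SMAA/EYFP and -0.17, -0.67 and -0.28 in wild type, and the summed intensity ran from 25114 to 75227 and from 23883 to 31071. Without SMAA/EYFP 3 the median was 0.19, without SMAA/EYFP 1 it was 1.15, and against all 6 wild-type arrays it was -0.06, where Vip was at -0.07. Of 11 genes of Schwann cells and satellite glia, 6 were higher. Their median of 0.27 was 0.07 without SMAA/EYFP 3 and 0.43 without SMAA/EYFP 1. Mbp, a myelin protein, was at 0.48 ± 0.16 without overlap on its brightest probe set, while its other 5 ranged from -0.11 to 0.56 with overlap.

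Skeletal muscle genes were few above the filter, 15 of 32, and 10 were lower. Myl1, a myosin light chain of fast skeletal muscle, measured 8.26, 12.19 and 10.86 in SMAA/EYFP and lay between 7.76 and 8.10 on the wild-type arrays, so SMAA/EYFP 2 and 3 stood apart from the other 4 arrays. Its difference was 2.48 ± 0.78 (adjusted p = 0.678), whereas Ckm, muscle creatine kinase, and Tnnt1, slow troponin T, were at -0.48 ± 0.19 and -0.49 ± 0.20. The median of 12 mesothelial genes was 0.25. Of these, 10 were higher, 2 entirely so (background 5.70%). The 2 were Msln, mesothelin, at 0.59 ± 0.19, and Upk3b, a uroplakin made by mesothelium and urothelium, at 0.34 ± 0.10. The 3 wild-type arrays of Msln lay between 10.49 and 10.84, and SMAA/EYFP 2 was highest at 11.71. The mesothelium median was 0.08 without SMAA/EYFP 2 and 0.43 without SMAA/EYFP 3.

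Among pathways, the response to oxidative stress was higher in 19 of 24 genes, 5 of them entirely above wild type (background 5.70%), with a median of 0.20, or 0.12 without SMAA/EYFP 2. Me1, malic enzyme, which supplies NADPH, measured 13.87, 13.94 and 13.96 in SMAA/EYFP and 13.73, 13.50 and 13.62 in wild type, at 0.30 ± 0.08. Gclc, the catalytic subunit of glutathione synthesis, was at 0.44 ± 0.13 on its brighter probe set but at 0.05 with overlap on the other. Gsta4, a glutathione transferase, was at 0.26 ± 0.08. Hmox1, heme oxygenase, lay on the other side at -0.54 ± 0.19. Cdkn1a, the kinase inhibitor p21, measured 12.04, 11.98 and 12.19 in SMAA/EYFP and 11.49, 11.37 and 11.63 in wild type, at 0.57 ± 0.12, and is counted here in the glucocorticoid list, where 14 of 27 genes were higher. Cdkn1a, and Cdkn1b on its brighter probe set but not on its dimmer one (-0.06), thus had higher means beside the replication genes. Both are inhibitors of the cell cycle kinases, and other such inhibitors are not described here.

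Retinoid genes were split, 7 higher and 7 lower. Rdh10, the enzyme that makes retinal, measured 11.46, 11.54 and 11.75 in SMAA/EYFP, below all wild-type arrays, whose highest was at 12.11, a difference of -0.46 ± 0.12. Rbp4, the retinol carrier, was at -0.30 ± 0.09, and Crabp2, a carrier of retinoic acid, at 0.57 ± 0.21, but at -0.14 against all 6 wild-type arrays. The wild-type mean of Crabp2 was 7.82, below the filter level of log2 7.96. Among imprinted growth genes, Dlk1, an inhibitor of adipogenesis, measured 13.56, 13.67 and 13.45 in SMAA/EYFP and 13.99, 13.97 and 13.89 in wild type, at -0.39 ± 0.09. Igf2, the fetal growth factor, was at -0.18 ± 0.07 and Mest at -0.23 ± 0.10, while Nnat, neuronatin, was at 0.97 ± 0.36 with SMAA/EYFP 3 highest. Of the 25 imprinted and growth factor genes, 18 were lower, 4 entirely so (background 7.20%). In the Wnt list 18 of 25 were lower, with Wnt2, a mesenchymal ligand, at -0.35 ± 0.13 and Wnt7b, a ligand of epithelia, at 0.48 ± 0.18. Rsad2, an interferon-induced antiviral protein, was at -0.81 ± 0.20 without overlap, in a list with 15 of 23 genes higher. Of 27 immediate early genes, 0 separated the groups (background 5.70% higher and 7.20% lower). Their median of 0.21 was -0.01 without wild type 5 and 0.51 without wild type 6. Ribosomal protein genes were at a median of 0.00 and proteasome genes at 0.04.

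RNA quality did not differ detectably between the groups. For the Gapdh controls, the ratio of the 3-prime to the 5-prime probe set on the log2 scale was 0.03 ± 0.09 (SD) in SMAA/EYFP and 0.08 ± 0.09 in wild type, with p = 0.600 in an exact permutation test (two-sided, n = 3 and 3). For Actb it was 0.73 ± 0.07 and 0.65 ± 0.08, with exact permutation p = 0.300. A p above the threshold does not show that the ratios were equal.

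Several leading genes lie in a long stretch at the end of chromosome 6. Ccnd2, Cdkn1b, Ldhb, Klhl42, Ccdc91 and Recql, all higher, and Hebp1, lower, lie between Ccnd2 and the end of the chromosome in the RefSeq gene order (GRCm38.p6). Counted from Ccnd2, the others lie from place 113 (Cdkn1b) to place 203 (Ccdc91). The stretch from Ccnd2 holds 216 protein-coding genes, was chosen after the values were seen and gets no test. Of its 79 genes tested, 17 lay entirely above and 7 entirely below wild type, 30.4% together, against 13.9% of 489 genes before Ccnd2 on the same chromosome and 12.9% of all genes. An unadjusted p under 0.01 was reached by 8 of the 79, or 10.1%, against 1.55% of all genes. The differences were not of 1 direction. Dera, deoxyribose-phosphate aldolase, was at -0.46 ± 0.10 and Etv6, a repressor of the ETS family, at -0.29 ± 0.11, and the median over the stretch was 0.08. Neighbouring genes ran the same way in some cases and not in others. Gpr19, an orphan receptor next to Cdkn1b, was at 0.66 ± 0.17 without overlap, while Apold1 on the other side was at 0.21 ± 0.33. Hebp1 at -0.60 lies next to Fam234b at 0.37 ± 0.19, and Kcnj8, next to Ldhb, was at -0.11 ± 0.15. Styk1, a receptor-like kinase, was at 0.87 ± 0.25. These genes other than the leading ones were picked for their place or their values.

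**Figure D5:**
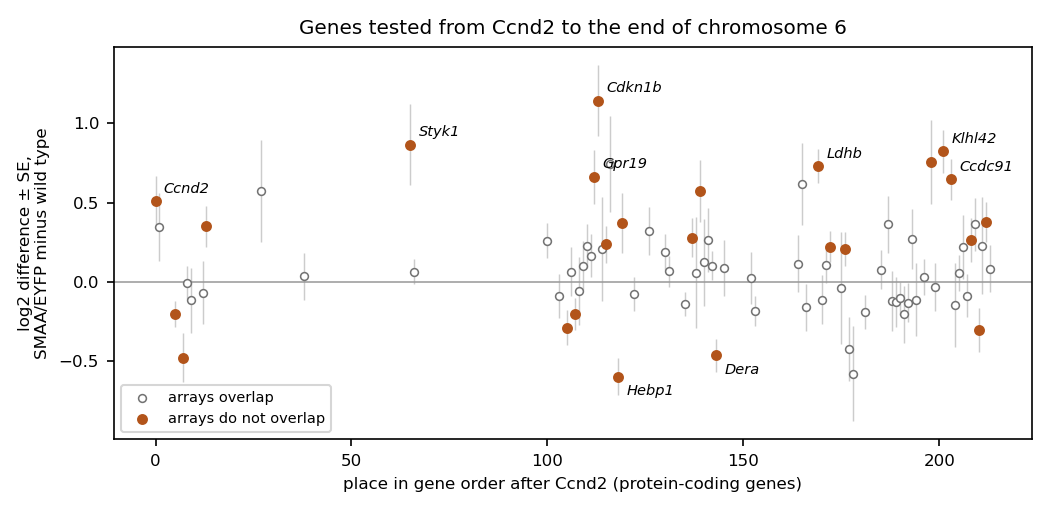
log2 difference ± SE (SMAA/EYFP minus wild type) of the 79 genes tested from Ccnd2 to the end of chromosome 6, against their place in the order of protein-coding genes; filled points are genes whose arrays do not overlap between the groups. The 24 filled points lie on both sides of 0, with Cdkn1b highest at 1.14 and Hebp1 lowest among them at -0.60.

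Whether a difference was particular to SMAA/EYFP was tested against the other transgene of the series. In SMGA/EGFP mice the Actg2 promoter drives a green fluorescent protein, and their 3 arrays were set against the 3 wild-type arrays of their own run, so the comparisons share no array. The difference of effects passed for 2 of 22518 probe sets (0.00888%; limma with Benjamini-Hochberg adjustment), and in both the larger difference from wild type was in SMGA/EGFP. For Fgfbp1, a carrier that releases fibroblast growth factors, SMAA/EYFP was at 12.15 against 11.75 in wild type, a difference of 0.39 ± 0.21, whereas SMGA/EGFP was at 9.03 against 11.17. The effects differed by 2.53 ± 0.30 (adjusted p = 0.0140), but this call was lost in 8 of the 12 fits that left out 1 array. Fgfbp1 passed only without SMGA/EGFP 1, SMGA/EGFP 3, wild type 2 or SMAA/EYFP 3 among these, and its adjusted p was 0.0559 without wild type 4. For 1 probe set of Atp6ap2, an accessory subunit of the vacuolar ATPase, SMAA/EYFP differed by -0.03 ± 0.10 and SMGA/EGFP by -1.37 ± 0.10, with a difference of 1.34 ± 0.14 (adjusted p = 0.00460, and 0.0157 without wild type 4). Atp6ap2 passed in all 12 fits that left out 1 array and did not pass with arrays centred on their median. Neither gene passed without an intensity trend.

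None of the leading genes of SMAA/EYFP passed this test. Ldhb was at 1.13 in SMAA/EYFP and 0.10 ± 0.19 in SMGA/EGFP on its probe set of smallest p, a difference of 1.03 ± 0.26 (adjusted p = 1.00). Cdc6 was at 0.90 and -0.37 ± 0.33, Lig1 at 0.63 and -0.20 ± 0.19, and Mcm6 at 0.57 and -0.32 ± 0.23. Their effects differed by 1.27 ± 0.47, 0.82 ± 0.27 and 0.89 ± 0.33, each with an adjusted p of 1.00. Lhfpl2 was lower in both transgenic groups, at -0.66 and -0.43 ± 0.13, as was Gimap4, at -0.50 and -0.38 ± 0.24. These values are set side by side and show neither a shared effect nor one particular to SMAA/EYFP.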

How the data were processed

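RNA of whole bladders was measured on one-colour Affymetrix mouse arrays, 1 array per animal. The authors deposited 1 linear intensity for each probe set and used GCOS, per the submitters' processing notes. The version, the summary algorithm and detection calls are not given in the sources used here. The trimmed mean of each array lay between 1499.55 and 1499.58, so the arrays had been scaled to 1 value, and 8.91% to 10.4% of values lay below 16.

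From 45101 probe sets, 64 controls were left out. The intensities deposited by the authors were converted here to log2(intensity + 16) and quantile-normalized over the 6 arrays. The brighter part of the probe sets, 22518 with a mean over log2 7.96 (the median), entered the test, which was limma's (version 3.58.1, R 4.3.3; lmFit, then eBayes with its trend option; two-sided). Benjamini-Hochberg adjustment was used with a threshold of 0.05. Errors of differences are moderated standard errors (SE), and errors of levels are standard deviations (SD). The number of arrays limits the precision. The difference of the 2 transgene effects was fitted on all 12 arrays in 4 groups. The fit was tested on simulated data.

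Symbols came from GEO's platform annotation through a RefSeq gene table (GRCm38.p6), which changed 0 symbols. A single symbol was found for 34945 of 45037 probe sets, several for 932 and none for 9160; genes were named from the first alone. A gene of a list is represented by its probe set of highest mean, and sequences are RefSeq's.

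Named genes were, in each direction, the 12 of smallest p and the 8 of largest difference with an unadjusted p under 0.01, without overlap between the groups. To these came the 10 of smallest p in the difference of effects, up to 4 members per list, the promoter genes, X and Y markers, and tested neighbours of named genes. The comparison, the 39 lists and their members were chosen with earlier results of these data known.

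Alternatives were values as deposited, median centring, pseudocounts of 1 and 64, no filter or filters at the 75th or 25th percentile, eBayes without a trend or robust, array weights, 1 probe set per gene, all 12 arrays in 4 groups, all 6 wild-type arrays, and leaving out each array. List counts without wild type 4 were added after seeing the data.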

Additional observations from a re-analysis of the deposited data

Results flagged for a closer look

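Wild type 4, labelled male, stood apart from the other 5 wild-type arrays of the series in genes of the sex chromosomes. Its Xist intensity was 29603.7, where the other 5 wild-type arrays lay between 127.7 and 250.4. Its Y-linked genes were near background, with Eif2s3y at 26.7, Kdm5d at 28.0 and Uty at 48.6. Chance alone flags about 1 in 20 groups of this kind for 1 gene. Here the same array was flagged in Xist, Eif2s3y, Kdm5d and Uty. High Xist with Y-linked genes near background is the pattern of female cells, and why the label says male was not tested. Of 123 named probe sets, leaving this array out turned the direction of 0 and moved 1 by over 1.5 times, Alas2, the first enzyme of heme synthesis in red cells, from -1.03 to -1.57.

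The effects of the transgenes differed by the test of the difference itself in Fgfbp1, by 2.53 on the log2 scale, and in 1 probe set of Atp6ap2, by 1.34. In both genes SMGA/EGFP lay below its wild-type arrays. SMAA/EYFP overlapped its own in Atp6ap2, and in Fgfbp1 its arrays (12.17, 12.36 and 11.92) lay above them (11.84, 11.80 and 11.64).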

How the results depend on the processing

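The number of probe sets past the threshold in SMAA/EYFP against wild type was 0 with each other normalization, pseudocount, filter, eBayes option or set of wild-type arrays, and when 1 array was left out it ranged from 0 to 1. The 1 probe set was of Ldhb without wild type 4 and of Amotl2 without wild type 6. The count for the difference of effects was 2, and it was 1 (Fgfbp1) with arrays centred on their median, 0 without an intensity trend (smallest adjusted p = 0.0797) and 1 to 3 when 1 of the 12 arrays was left out. The leukocyte median of -0.24 was -0.18 with the 75th percentile filter and -0.0938 against all 6 wild-type arrays. The neuron median of 0.77 was -0.0632 against all 6, where Vip (-0.0676) and Crabp2 (-0.14) also turned direction. The promoter genes differed by too little to hold a direction: Actg2 was at 0.0096 as deposited and at 0.0063 with median centring. Leaving out 1 array gave -0.0954 to 0.0090 for Acta2, -0.0235 to 0.0049 for Actg2 and -0.0871 to 0.0073 for the Gapdh ratio. The cause was not tested in these cases. The medians of the replication, urothelium, mitosis, fibroblast, endothelium and contractile lists kept their direction under every setting tried, but the mitosis median of -0.13 came as near to 0 as -0.0101 and the contractile median of -0.07 as near as -0.0251. No paired analysis was possible because the labels give no replicate numbers that tie arrays of the groups. With 3 arrays a group, small changes may go undetected, and very bright or dim probe sets show less than the full difference.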

Other observations

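In the lists not described so far, 0 members passed the threshold. Among cell types, pericyte genes were lower in 9 of 11, with a median of -0.14 (-0.33 without SMAA/EYFP 1) and Mcam, an adhesion protein of mural cells, at -0.31 ± 0.13. Of 4 mast cell genes 3 were higher, with the protease Tpsab1 at 0.62 ± 0.21 without overlap, and 4 of 7 adipocyte genes were higher although Scd1, a fatty acid desaturase, was at -0.50 ± 0.13. Of 5 erythroid genes, Tfrc, the transferrin receptor, was at 0.37 ± 0.10 and Car2, a carbonic anhydrase, at 0.39 ± 0.15. Alas2 was at -1.03 ± 0.41 with wide spread in wild type (9.40, 11.07 and 10.90 in wild type 4, 5 and 6), and the list median of -0.16 was 0.07 without wild type 5. The prostate and Wolffian duct list had 2 genes above the filter, 1 higher and 1 lower.

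Genes of the dystrophin complex and dense plaques were lower in 16 of 20, with a median of -0.09 (-0.17 without wild type 4) and Sgcb, a sarcoglycan, at -0.42 ± 0.15. Genes of oxidative phosphorylation were lower in 41 of 50, 9 of them entirely below wild type (background 7.20%), by small amounts around a median of -0.05. Ndufs4, a subunit of complex I, was at -0.27 ± 0.09 and Cox7c, a subunit of cytochrome oxidase, at -0.52 ± 0.18. The Cox7c value, the lowest of the list, came from a dim probe set with means of 8.65 in SMAA/EYFP and 9.17 in wild type. Hypoxia and glycolysis genes had a median of -0.08 (0.04 without SMAA/EYFP 2), cytosolic heat shock -0.03 (0.04 without wild type 6), the circadian clock -0.04 (-0.13 without SMAA/EYFP 1) and endoplasmic reticulum stress 0.02 (-0.03 without SMAA/EYFP 2). TGF-beta and BMP genes had a median of -0.02 (-0.11 without SMAA/EYFP 2), with Tgfbi, a matrix protein induced by TGF-beta, at -0.26 ± 0.07 and Id1, a target of BMP, at 0.36 ± 0.13. FGF genes had a median of 0.10, which was -0.05 without wild type 5 and 0.29 without SMAA/EYFP 2, with the receptor Fgfr3 at 0.29 ± 0.12 and the receptor Fgfr1 at -0.39 ± 0.16, both without overlap. Hox genes and their cofactors had a median of -0.02 (0.08 without wild type 4), with Hoxd10 at -0.41 ± 0.15, and steroid receptors and enzymes 0.00 (0.11 without SMAA/EYFP 1), with Nr3c1, the glucocorticoid receptor, at -0.26 ± 0.09. The 8 tested X and Y marker genes had a median of 0.00, 4 of them higher and 4 lower.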
